A study of Mus musculus with 12 samples.

Results

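The genes described here encode the enzymes, carriers and lipid-responsive proteins of fatty acid oxidation and ketone body metabolism, followed in murine jejunal enteroids that lacked Hdac1 or Hdac2. The 38 genes were taken by symbol from a fixed list, and all 38 were found among the 18929 genes of the deposited count tables. They fall into 8 roles: the carnitine shuttle with 4 genes, acyl-CoA synthetases and thioesterases with 5, the mitochondrial beta-oxidation spiral with 9, the oxidation of unsaturated chains with 4, electron transfer with 3, peroxisomal oxidation with 5, ketone bodies with 1 and other PPARA-responsive genes with 7.

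Enteroids are cultures of intestinal epithelium grown from isolated crypts in a gel. RNA-Seq was performed on 12 libraries in 3 groups of 4: control enteroids from villin-Cre mice, Hdac1-deficient enteroids and Hdac2-deficient enteroids (the Hdac1 and Hdac2 mutants), all from jejunum and all grown for 5 days in ENR medium (EGF, Noggin and R-Spondin 1). Hdac1 and Hdac2 encode class I histone deacetylases. Floxed alleles were deleted by Cre under the villin promoter, which is active in the intestinal epithelium, on a mixed C57BL/6J, 129SV and CD1 background. The study's methods name 1 mouse per genotype as the source of the crypts, so genotype, mouse and line cannot be told apart, and p-values measure the spread between these libraries, which may be technical. The libraries held between 20693200 and 30658628 counts. Levels are given as CPM, the counts of a gene scaled to a common library size with edgeR's TMM factors, and differences as log2 fold changes with their standard error (SE) from edgeR's quasi-likelihood test. A gene was taken as changed at a Benjamini-Hochberg adjusted p of at most 0.05 over all tested genes, and as called when it was also over 2-fold different.

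Fatty acids are activated to acyl-CoA, carried into mitochondria as carnitine esters and shortened in repeated rounds of dehydrogenation, hydration, a second dehydrogenation and thiolysis. Very long and branched chains are shortened first in peroxisomes. The acetyl-CoA that is produced can be turned into ketone bodies, a branch that intestinal crypts and enterocytes are known to use. PPARA, a nuclear receptor that is activated by fatty acids and pairs with RXR, controls many of these genes.

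The targeted genes were examined first. Hdac1 was at 90.6 ± 2.87 CPM (SD, n = 4) in control and at 4.23 ± 0.842 CPM in the Hdac1 mutant. Hdac2 was at 136.9 ± 4.39 CPM in control and between 73.2 and 78.8 CPM in the Hdac2-deficient libraries, so its count was reduced but not absent. Counts are per gene, so which parts of the transcript remained cannot be told. Epithelial markers such as Epcam, Vil1 and Cdx2 were present, and 4 of 8 fibroblast, leukocyte and endothelial markers were not listed at all, with the 8 together between 0.201 and 0.873 CPM in every library. Levels of cell type markers also differed between the groups. The 10 enterocyte markers together ranged from 10748 to 11308 CPM in control, from 20536 to 23647 in the Hdac1 mutant and from 16912 to 18974 in the Hdac2 mutant, and all 10 were higher in each mutant. The 6 stem cell markers together ranged from 3668 to 3879, from 2091 to 2442 and from 1769 to 1966 CPM in the same order, and all 6 were lower in each mutant. In such bulk samples, fewer cells of a type and less RNA per cell cannot be told apart, and the part of these shifts in the results that follow was not tested.

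In control enteroids most of these genes were well expressed. Per kilobase of exon, the highest levels were those of Acsl5, an acyl-CoA synthetase, at 202.5 CPM per kb, Ucp2, a mitochondrial carrier, at 180.9, and Acaa2, the thiolase of the last step of the spiral, at 180.5. The median over 14456 genes on this scale was 5.31. The lowest were Cyp4a10 at 1.05, Vnn1 at 0.91, Acot12 at 0.297 and Pdk4 at 0.145 CPM per kb, and these 4 are also the genes with differences over 2-fold described below. Summed over the 38 genes, the level ranged from 6717 to 7055 CPM in control, from 7122 to 7438 in the Hdac1 mutant and from 7344 to 7573 in the Hdac2 mutant, mean ratios to control of 1.06 and 1.09. The summed enterocyte markers stood at 2.01 and 1.61 times control.

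The first comparison asked how the genes stood in the Hdac1 mutant against control. Of the 38 genes, 18 were higher, 11 were lower and 9 did not pass the test, beside 64.6% of all 14246 tested genes that changed (32.7% higher and 31.9% lower). The median log2 fold change was 0.06, against -0.00 over all genes. Only 3 were called, Vnn1 upward and Cyp4a10 and Acot12 downward, beside 10.6% of all genes (6.87% higher and 3.71% lower). In the Hdac2 mutant 31 of the 38 were higher, 3 were lower (Cpt1a, Acot1 and Acsl5) and 4 did not pass the test (Acaa2, Echs1, Etfa and Acot12), beside 62.3% of 14007 genes that changed, 31.4% higher and 30.9% lower. Their median was 0.21, against -0.00 over all genes. Vnn1 alone was called, beside 8.3% of all genes (5.45% higher and 2.84% lower).

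Most of these differences were small. Tested against a change of 1.5-fold, 2 genes were higher in the Hdac1 mutant (Vnn1 and Creb3l3) and 1 lower (Cyp4a10), and in the Hdac2 mutant 2 (Vnn1 and Decr2), both upward. The share of all tested genes that passed this test is not given here, so these counts cannot be called few or many. When each library was left out in turn, 17 of the 18 higher and 9 of the 11 lower genes in the Hdac1 mutant and 28 of the 31 higher and all 3 lower genes in the Hdac2 mutant passed every time. The exceptions were small differences, of Cpt2, Acsl5, Etfb and Hadhb, and Pdk4, whose counts were low. Both comparisons use the same 4 control libraries, so a deviation of those libraries enters both.

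**Figure D1:**
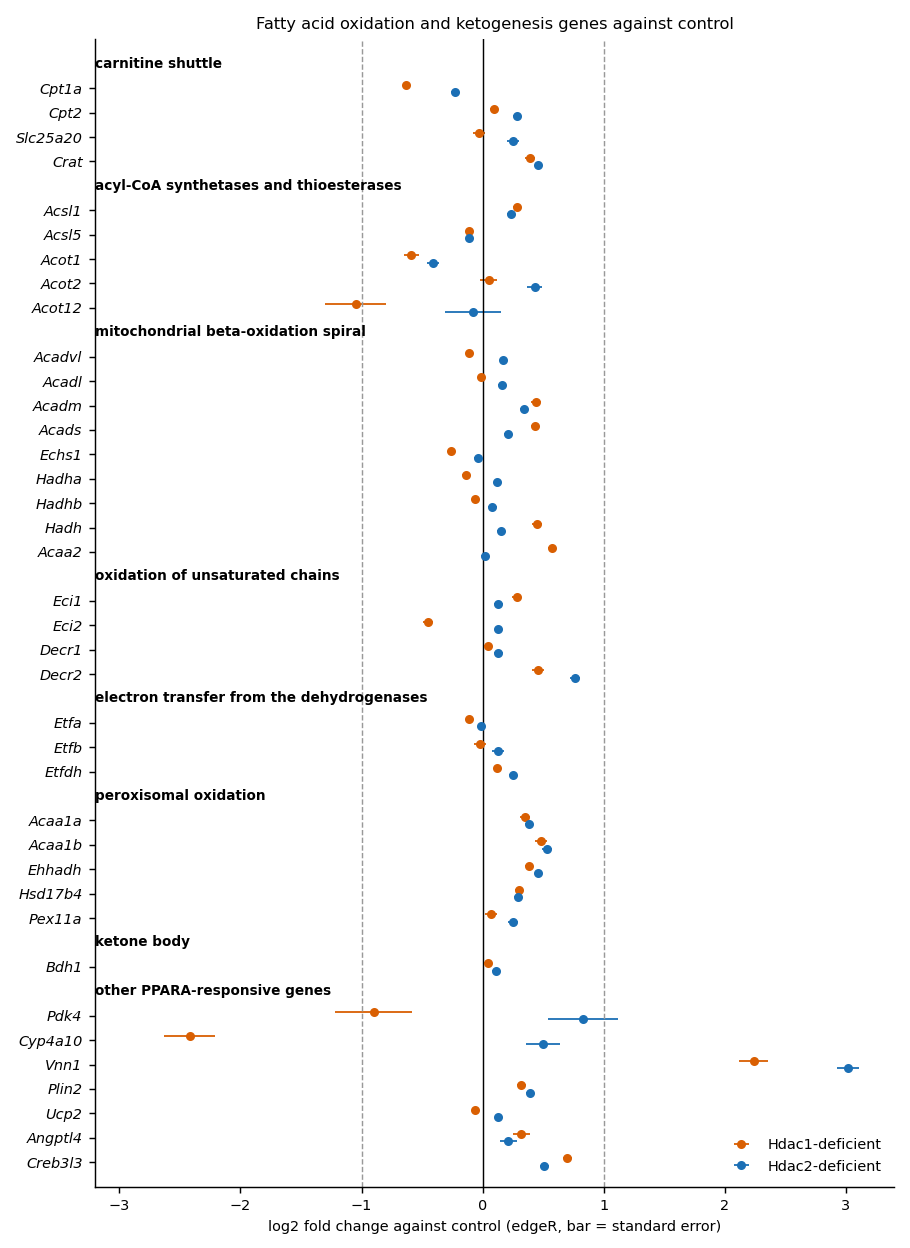
Log2 fold change against control (x axis, edgeR) of the 38 genes, grouped by role, in Hdac1-deficient (orange) and Hdac2-deficient (blue) enteroids; bars are standard errors and dashed lines mark 2-fold. Most points lie within 1 unit of 0, while Vnn1 lies at 2.24 and 3.02 and Cyp4a10 at -2.42 and 0.50.

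The mutants were then compared directly in 1 fit of all 12 libraries. Of the 38 genes, 6 were higher in the Hdac1 mutant than in the Hdac2 mutant (Acadm, Acads, Hadh, Acaa2, Eci1 and Creb3l3), 23 were lower and 9 did not pass the test, beside 45.9% of 14510 genes that changed (22.3% higher and 23.7% lower). The median difference was -0.14, against 0.01 over all genes. Cyp4a10 and Pdk4 were called, both lower in the Hdac1 mutant, beside 5.62% of all genes (2.74% higher and 2.89% lower). Tested against 1.5-fold, 3 genes differed, all lower (Cyp4a10, Pdk4 and Vnn1), and the share of all tested genes that did so is not given here. With each library left out in turn, 5 of the 6 and 20 of the 23 passed every time; the others were Acadm, Bdh1, Decr1 and Ehhadh, with differences between -0.09 and 0.10.

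**Figure D2:**
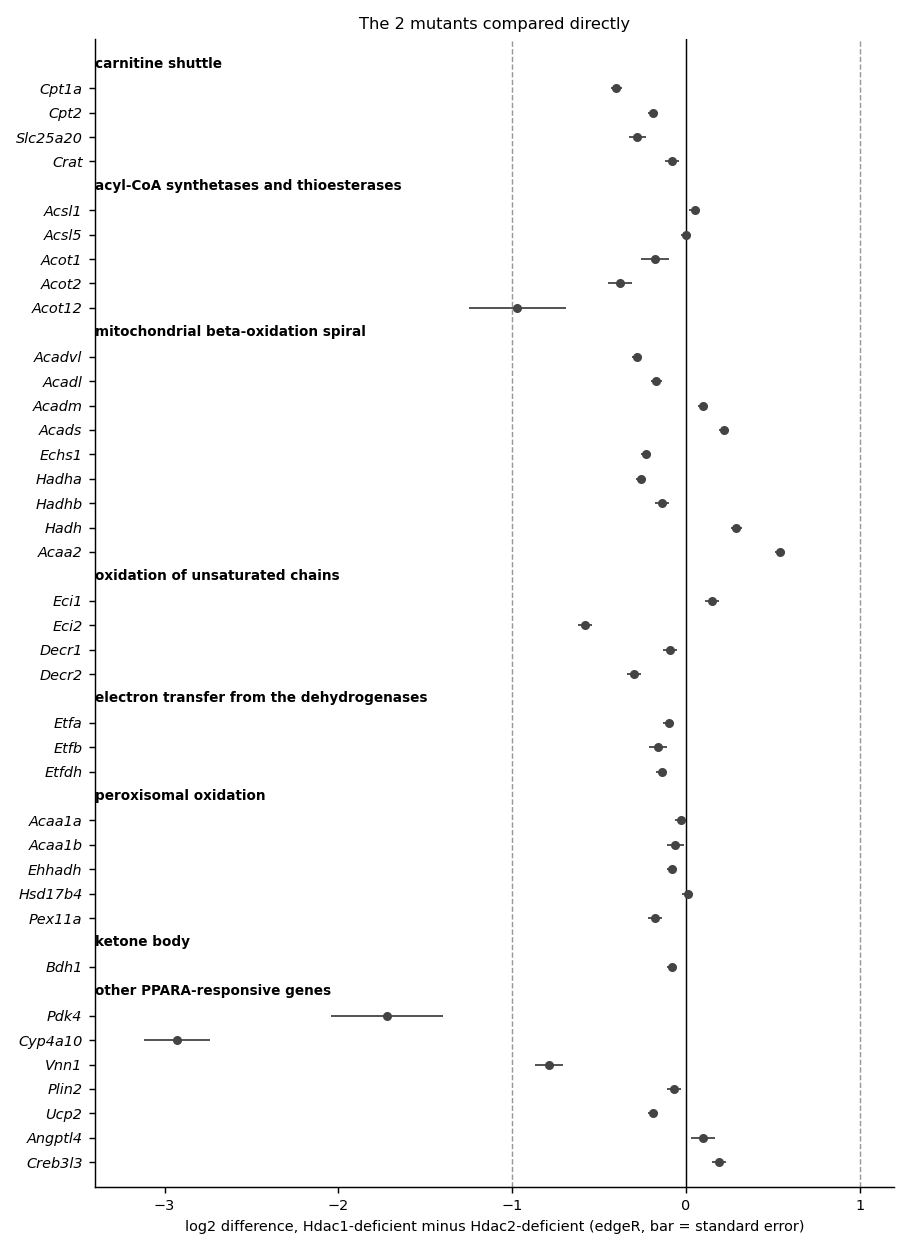
Log2 difference between the mutants (x axis, Hdac1-deficient minus Hdac2-deficient, edgeR) of the 38 genes by role; bars are standard errors and dashed lines mark 2-fold. Within the spiral Acaa2 lies at 0.54 and Hadh at 0.29, to the right of 0, while Acadvl at -0.28 and Hadha at -0.26 lie to the left.

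The carnitine shuttle moves long acyl chains across the inner mitochondrial membrane. Cpt1a, which makes the acylcarnitine and is the rate-limiting step of entry, lies on chromosome 19 (GRCm38, chr19:3322334-3385733). The control libraries held 219.3, 223.6, 236.3 and 221.1 CPM of Cpt1a, the Hdac1-deficient libraries 142.1, 144.2, 142.3 and 150.5, and the Hdac2-deficient libraries 191.3, 189.3, 191.7 and 189.4. No library of one group reached into the range of another. Cpt1a fell by 0.63 on the log2 scale (SE 0.03, adjusted p = 2.5e-12) in the Hdac1 mutant and by 0.23 (SE 0.03, adjusted p = 7.2e-07) in the Hdac2 mutant.

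The values of Cpt1a are set here beside those of its chromosome. The other tested genes of chromosome 19 stood lower in both mutants, at a median of -0.52 over 508 genes without Hdac1 and of -0.52 over 497 genes without Hdac2, while genes of chromosomes 1 to 18 had a median of 0.01 in both. Within 5 Mb of Cpt1a the medians were -0.54 and -0.53. In the Hdac1 mutant 60 of the 154 neighbouring genes were lower than Cpt1a, and in the Hdac2 mutant 115 of 153 were. The difference between the mutants was -0.40 (SE 0.03, adjusted p = 4.1e-11), where the median over its neighbours was 0.01. What lowered chromosome 19 in both mutants relative to control, and its part in the Cpt1a values, was not tested.

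**Figure D3:**
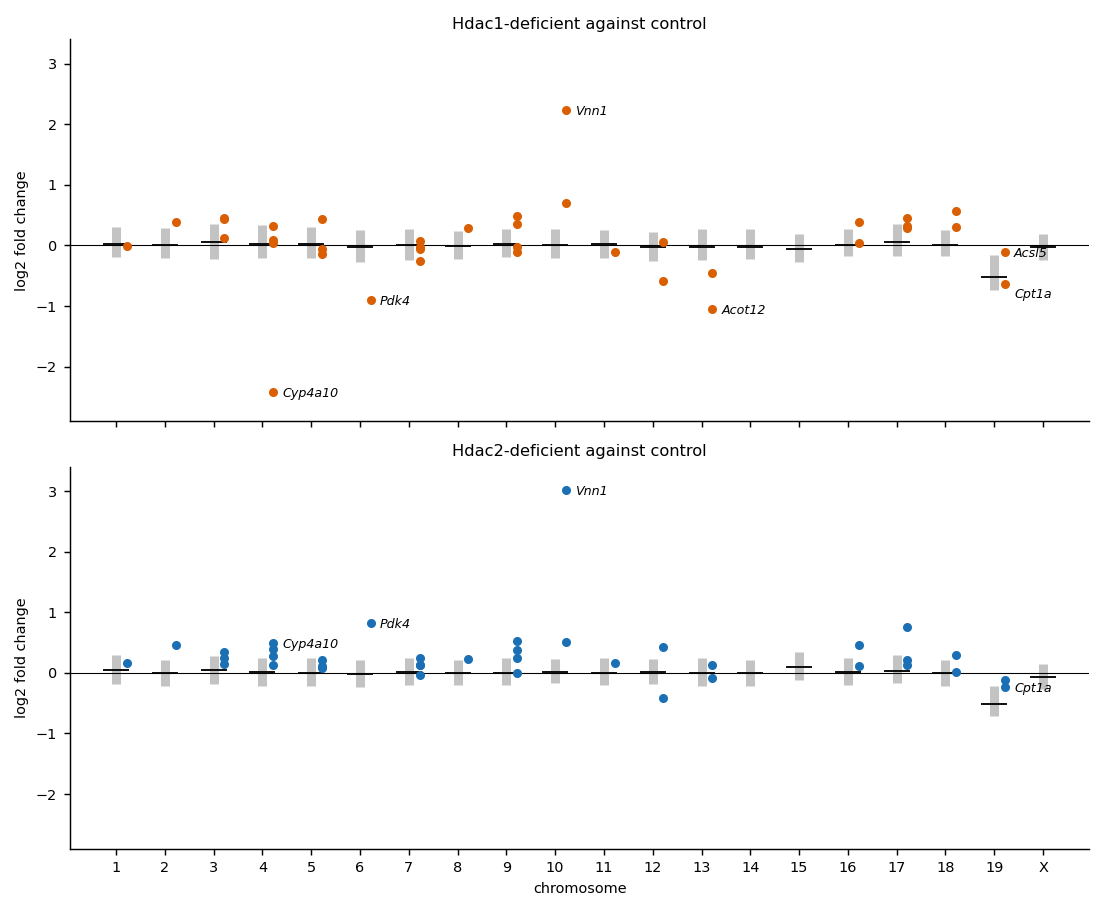
Log2 fold change against control (y axis) by chromosome (x axis): black dashes are medians over all tested genes, grey bars run from the lower to the upper quartile, and points are the 38 genes. Chromosome 19 lies at -0.52 in Hdac1-deficient (upper panel) and -0.51 in Hdac2-deficient enteroids (lower panel), and its points are Cpt1a and Acsl5.

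The other shuttle genes lie elsewhere. Cpt2, which returns the acyl group to CoA inside the mitochondrion, rose by 0.09 (SE 0.03) in the Hdac1 mutant and by 0.28 (SE 0.03) in the Hdac2 mutant, but without control library 4 or Hdac1-deficient library 1 the former no longer passed (log2 fold change 0.08, adjusted p = 0.082 and 0.051). Slc25a20, the carrier that exchanges acylcarnitine for carnitine, was at 56.1 ± 4.01, 54.5 ± 3.56 and 66.1 ± 4.22 CPM (SD, n = 4) in control, the Hdac1 mutant and the Hdac2 mutant and passed the test in the Hdac2 mutant (log2 fold change 0.25, SE 0.05). Crat, which acts on short chains and acetyl groups, rose by 0.39 (SE 0.04) and 0.46 (SE 0.03). Between the mutants, Cpt1a, Cpt2 and Slc25a20 were lower in the Hdac1 mutant, and Crat did not pass (difference -0.08, adjusted p = 0.08). The summed shuttle ranged from 404.5 to 432.0 CPM in the Hdac1 mutant, below the 456.9 to 479.1 of control and the 484.0 to 502.6 of the Hdac2 mutant. Without Cpt1a, the other 3 genes together ranged from 262.2 to 281.5 CPM in the Hdac1 mutant, above the 235.7 to 248.7 of control, and from 294.6 to 311.3 in the Hdac2 mutant.

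Acyl-CoA synthetases activate fatty acids, and thioesterases release them again. Acsl5, also on chromosome 19 (chr19:55251938-55297720), had 990.2, 975.2, 970.1 and 1004 CPM in control, 904.9, 896.8, 869.1 and 960.7 in the Hdac1 mutant and 917.4, 912.5, 899.1 and 895.2 in the libraries of the Hdac2 mutant. All 8 mutant libraries lay below the lowest control library. It fell by 0.11 in each mutant (SE 0.03, adjusted p = 0.012 and 0.0016), which is a smaller drop than the medians of -0.53 and -0.52 over its neighbours within 5 Mb. Without Hdac1-deficient library 3 its value there was -0.08 (adjusted p = 0.05, just above the threshold and so not passing). Acsl1, the other synthetase, rose by 0.28 and 0.23 (SE 0.03 each), and neither synthetase differed past the threshold between the mutants.

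Among the thioesterases, Acot1, which is cytosolic, fell by 0.59 (SE 0.06) in the Hdac1 mutant and by 0.41 (SE 0.05) in the Hdac2 mutant. Acot2, its mitochondrial relative, rose by 0.43 (SE 0.06) in the Hdac2 mutant and had a log2 fold change of 0.05 (adjusted p = 0.51) in the Hdac1 mutant. These neighbouring genes share sequence: 12.4% of the 100-base windows of Acot1 transcripts also occur in other genes, mainly Acot2, Acot3 and Acot5, as do 17.1% of those of Acot2, so their split is uncertain. Acot12, which hydrolyses acetyl-CoA (chr13:91741512-91786148), was low. It had 1.11, 0.915, 0.925 and 0.967 CPM in control, 0.525, 0.681, 0.361 and 0.291 in the Hdac1 mutant and 1.14, 1.02, 0.485 and 0.955 in the libraries of the Hdac2 mutant. The Hdac1-deficient libraries lay below all control libraries, and Hdac2-deficient library 3 lay within the range of the Hdac1 mutant. Its log2 fold change was -1.05 (SE 0.25, adjusted p = 0.0013) in the Hdac1 mutant and -0.08 (SE 0.23, adjusted p = 0.78) in the Hdac2 mutant, on 8 to 33 counts per library, and the mutants differed by -0.97 (SE 0.28, adjusted p = 0.0066). In the Hdac1 mutant the change was under 2-fold without control library 1 (-0.98), without Hdac1-deficient library 3 (-0.94) and without library 4 (-0.89).

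PPARA with RXR binds direct repeats of AGGTCA spaced by 1 base, AGGTCANAGGTCA. RefSeq promoters (250 bases before to 50 after each start, GRCm38.p6, both strands) were found for 31 of the 38 genes. Those of Acaa2, Hsd17b4, Decr1, Cyp4a10, Vnn1, Angptl4 and Crat were missing and were not searched. None of the 31 held the exact repeat, as did 0.0481% of 27025 genes, and 1 held it with at most 1 mismatch (3.23%, against 0.644%). A single AGGTCA, a part of the repeat, was found in 7 of the 31 (22.6%, against 18.1%). The near match is shown because Acot12 is also a called gene, but the called genes Cyp4a10 and Vnn1 had no promoter to search. The whole stretch shown lies on the minus strand at chr13:91741403-91741431. The capitals mark the 13 matched bases, which lie 110 to 98 bases before the RefSeq start.
Acot12 promoter: tgcttaggAGGTGAGAGGTCAgggtccta
Such a match is a description of the letters and not a binding site.

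The mitochondrial spiral held changes in both directions in the Hdac1 mutant, where 32.7% of all tested genes were higher and 31.9% lower. Of its 9 genes, 4 were higher (Acadm, Acads, Hadh and Acaa2), 3 were lower (Acadvl, Echs1 and Hadha) and 2 did not pass the test (Acadl and Hadhb). In the Hdac2 mutant 7 were higher, beside 31.4% of all tested genes, and Echs1 and Acaa2 did not pass. All 9 differed between the mutants, 4 higher and 5 lower in the Hdac1 mutant, beside 45.9% of all tested genes (22.3% higher and 23.7% lower). The smallest of these differences, 0.10 for Acadm (adjusted p = 0.02), did not pass without Hdac2-deficient library 2 (0.09, adjusted p = 0.062) or library 3 (0.08, adjusted p = 0.068).

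The first dehydrogenation is carried out by enzymes of different chain length. Acadvl, for very long chains, was at 194.0 ± 3.43 CPM in control, 178.1 ± 7.57 in the Hdac1 mutant and 216.2 ± 2.14 in the Hdac2 mutant (SD, n = 4), and fell by 0.11 in the former and rose by 0.17 in the latter (SE 0.03 each). Acadl, for long chains, was at 263.0 ± 5.61, 259.9 ± 6.2 and 292.3 ± 11.4 CPM and rose by 0.16 (SE 0.03) in the Hdac2 mutant. The enzymes of medium and short chains showed larger fold changes. Acadm, for medium chains, was at 130.3 ± 5.79, 175.7 ± 3.94 and 164.3 ± 5.08 CPM and rose by 0.44 (SE 0.04) and 0.34 (SE 0.03). Acads, for short chains, was at 94.4 ± 2.14, 126.5 ± 2.91 and 108.4 ± 1.66 CPM and rose by 0.43 and 0.21 (SE 0.03 each). Acads was higher in the Hdac1 mutant than in the Hdac2 mutant by 0.22 (SE 0.03, adjusted p = 1.3e-06), and Acadvl was lower by 0.28 (SE 0.03, adjusted p = 2.6e-08).

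The later steps showed both directions as well. Hadha and Hadhb are the subunits of the trifunctional protein, which works on long chains. Hadha was at 341.1 ± 4.87, 307.3 ± 7.93 and 368.3 ± 10.4 CPM and fell by 0.14 (SE 0.03) in the Hdac1 mutant and rose by 0.12 (SE 0.03) in the Hdac2 mutant. Hadhb was at 146.9 ± 5.13, 140.1 ± 4.34 and 154.5 ± 7.61 CPM. Its log2 fold change of -0.06 in the Hdac1 mutant did not pass, and that of 0.08 in the Hdac2 mutant (adjusted p = 0.048) did not pass without control library 2, 3 or 4 or without Hdac2-deficient library 1 or 4 (0.04 to 0.08, adjusted p = 0.082 to 0.3). These genes start next to each other on opposite strands of chromosome 5, at 30155162 and 30155248. Echs1, the short-chain hydratase, fell by 0.26 (SE 0.03) in the Hdac1 mutant and was at -0.04 (adjusted p = 0.31) in the Hdac2 mutant.

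Hadh, the short-chain 3-hydroxyacyl-CoA dehydrogenase, had the highest CPM of the spiral, not corrected for length. Control libraries held 545.4, 494.3, 493.5 and 523.5 CPM, Hdac1-deficient libraries 690.3, 697.8, 678.8 and 711.3, and Hdac2-deficient libraries 572.8, 566.0, 550.4 and 584.1. The ranges of the groups were separate. Hadh rose by 0.45 (SE 0.04, adjusted p = 1.2e-09) and by 0.15 (SE 0.03, adjusted p = 0.0004), with a difference of 0.29 between the mutants (SE 0.03, adjusted p = 5.5e-08). Acaa2, the thiolase that closes the round, was at 273.6 ± 9.58 CPM in control, 402.4 ± 12 in the Hdac1 mutant and 276.0 ± 4.91 in the Hdac2 mutant (SD, n = 4). It rose by 0.57 (SE 0.03, adjusted p = 1.2e-11) in the former and was at 0.02 (adjusted p = 0.53) in the latter, and the mutants differed by 0.54 (SE 0.03, adjusted p = 8.9e-14).

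**Figure D4:**
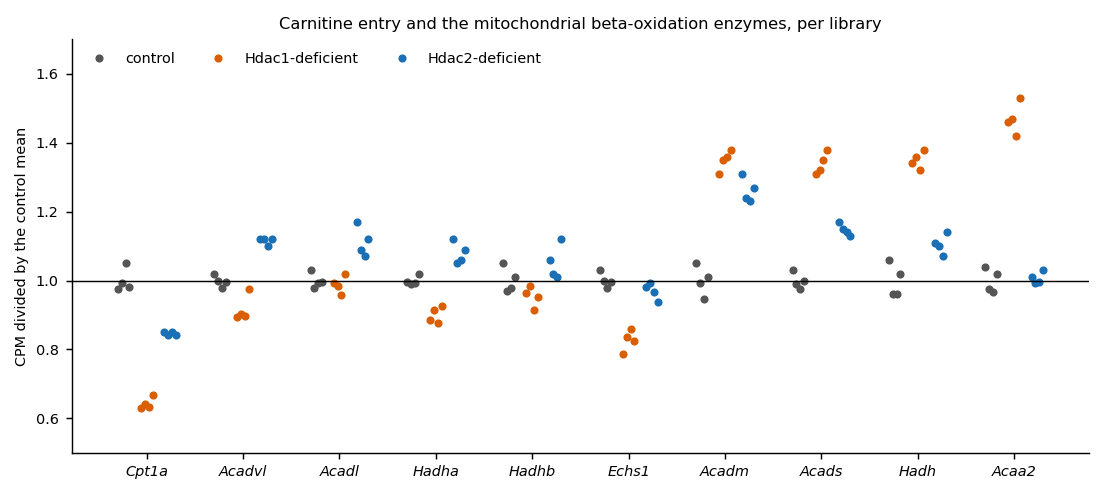
CPM divided by the control mean (y axis) of Cpt1a and the 9 spiral genes (x axis) in every library of control (grey), Hdac1-deficient (orange) and Hdac2-deficient (blue) enteroids; the line marks the control mean. In Hdac1-deficient libraries Acaa2 lies between 1.42 and 1.53 and Acads between 1.31 and 1.38, while Hadha lies between 0.877 and 0.926 and Cpt1a between 0.631 and 0.669.

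Unsaturated chains also need isomerases and a reductase for their oxidation. Decr2, the peroxisomal 2,4-dienoyl-CoA reductase, showed the largest fold changes of this role. It was at 31.7 ± 1.32 CPM in control, 43.2 ± 2.11 in the Hdac1 mutant and 53.1 ± 2.23 in the Hdac2 mutant (SD, n = 4), and rose by 0.46 (SE 0.05) and 0.76 (SE 0.04). Decr1, its mitochondrial counterpart, held 97.2, 88.7, 86.7 and 92.2 CPM in control, 89.1, 96.2, 94.5 and 92.5 in the Hdac1 mutant and 102.4, 98.7, 100.2 and 96.1 in the libraries of the Hdac2 mutant. Its groups overlapped, and it rose past the threshold in the Hdac2 mutant (0.13, SE 0.04, adjusted p = 0.0034). The difference of -0.09 between the mutants (adjusted p = 0.042) did not pass without control library 4, Hdac1-deficient library 1 or 4 or Hdac2-deficient library 1, 2 or 3 (-0.10 to -0.07, adjusted p = 0.051 to 0.14).

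The isomerases Eci1 and Eci2 differed in direction in the Hdac1 mutant. Eci1 rose by 0.28 and by 0.13 (SE 0.04 each) in the mutants. Eci2 held 71.8 ± 1.11 CPM in control, 52.3 ± 2.07 in the Hdac1 mutant and 78.2 ± 2.02 in the Hdac2 mutant. It fell by 0.45 (SE 0.04, adjusted p = 4.5e-09) in the former and rose by 0.13 (SE 0.03, adjusted p = 0.002) in the latter, a difference of -0.58 (SE 0.04, adjusted p = 5.9e-13) that was the largest outside the PPARA-responsive genes and Acot12.

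Electrons from the acyl-CoA dehydrogenases pass through the flavoprotein ETF, made of Etfa and Etfb, to the ubiquinone oxidoreductase Etfdh. Etfa held 241.2, 224.7, 223.7 and 235.9 CPM in control, 214.3, 215.7, 210.0 and 212.2 in the Hdac1 mutant and 228.0, 229.1, 225.8 and 229.4 in the libraries of the Hdac2 mutant. The Hdac1-deficient libraries lay below all others. Etfa fell by 0.11 (SE 0.03, adjusted p = 0.0067) in the Hdac1 mutant and was at -0.01 (adjusted p = 0.76) in the Hdac2 mutant. Etfdh rose by 0.12 and by 0.25 (SE 0.03 each). Etfb was at -0.02 (adjusted p = 0.73) and 0.13 (SE 0.05, adjusted p = 0.015), the latter not past the threshold without control library 3 (0.11, adjusted p = 0.058) or Hdac2-deficient library 4 (0.12, adjusted p = 0.056), and 35.8% of its 100-base windows also occur in the overlapping gene model Gm45233. All 3 were lower in the Hdac1 mutant than in the Hdac2 mutant, by 0.10 to 0.16, beside 23.7% of all tested genes.

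Of the 5 peroxisomal genes, 4 rose in the Hdac1 mutant (all but Pex11a) and 5 in the Hdac2 mutant, beside 32.7% and 31.4% of all tested genes. Between the mutants 2 differed (Ehhadh and Pex11a), beside 45.9% of all tested genes. Together the 5 genes ranged from 559.1 to 589.0 CPM in control, from 702.4 to 760.0 in the Hdac1 mutant and from 714.3 to 767.6 in the Hdac2 mutant, mean ratios of 1.26 and 1.3. Hsd17b4, the multifunctional protein of the middle steps of the pathway for branched chains, held 204.1, 189.7, 188.5 and 197.3 CPM in control, 239.1, 235.8, 231.0 and 245.0 in the Hdac1 mutant and 240.4, 233.9, 227.2 and 242.9 in the libraries of the Hdac2 mutant. All 8 mutant libraries lay above the highest control library. It rose by 0.30 (SE 0.03, adjusted p = 1.6e-07) and by 0.29 (SE 0.03, adjusted p = 8.6e-08), and the mutants differed by 0.01 (SE 0.03, adjusted p = 0.83).

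Ehhadh, the bifunctional enzyme of straight chains, was at 123.0 ± 2.06 CPM in control, 158.9 ± 2.69 in the Hdac1 mutant and 167.5 ± 5.44 in the Hdac2 mutant and rose by 0.38 and 0.46 (SE 0.03 each). Its difference of -0.08 between the mutants (adjusted p = 0.04) did not pass without Hdac1-deficient library 1, 2 or 3 or without Hdac2-deficient library 1, 2 or 4 (-0.07 to -0.06, adjusted p = 0.071 to 0.13). The thiolases Acaa1a and Acaa1b rose by 0.35 (SE 0.04) and 0.48 (SE 0.05) in the Hdac1 mutant and by 0.38 (SE 0.03) and 0.53 (SE 0.04) in the Hdac2 mutant. They share sequence, 7.21% of the 100-base windows of Acaa1a and 19.3% of those of Acaa1b, so the split of reads between them is uncertain. Pex11a, which helps peroxisomes divide, rose by 0.25 (SE 0.04) in the Hdac2 mutant and was at 0.07 (adjusted p = 0.21) in the Hdac1 mutant.

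Bdh1, which interconverts acetoacetate and beta-hydroxybutyrate, is the ketone body gene of the 38. It held 320.1, 307.5, 304.9 and 303.6 CPM in control, 314.7, 330.6, 313.2 and 302.4 in the Hdac1 mutant and 333.7, 341.0, 327.9 and 326.6 in the libraries of the Hdac2 mutant. The control and Hdac1-deficient libraries overlapped, and the Hdac2-deficient libraries lay above all control libraries. Its log2 fold change was 0.04 (SE 0.03, adjusted p = 0.3) and 0.11 (SE 0.03, adjusted p = 0.0016). The difference of -0.08 between the mutants (adjusted p = 0.047) did not pass when any library other than Hdac1-deficient 2 was left out (-0.08 to -0.05, adjusted p = 0.051 to 0.16).

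The 7 other PPARA-responsive genes held the largest differences. In the Hdac1 mutant 4 were higher, 2 were lower (Pdk4 and Cyp4a10) and Ucp2 did not pass, beside 32.7% higher and 31.9% lower over all tested genes. In the Hdac2 mutant all 7 were higher, beside 31.4% of all tested genes. Cyp4a10, a microsomal omega-hydroxylase of fatty acids (chr4:115518264-115533649), held 2.38, 2.53, 2.18 and 1.72 CPM in control, 0.375, 0.486, 0.427 and 0.327 in the Hdac1 mutant and 2.95, 3.36, 3.15 and 3.04 in the libraries of the Hdac2 mutant. These levels rest on 41 to 72, 9 to 15 and 65 to 86 counts per library, and no group overlapped another. It fell by 2.42 on the log2 scale (SE 0.21, adjusted p = 4e-09), to 0.186 times control, in the Hdac1 mutant and rose by 0.50 (SE 0.14, adjusted p = 0.0033) in the Hdac2 mutant. The mutants differed by -2.93 (SE 0.19, adjusted p = 1.4e-12). Of its 100-base windows, 12.2% also occur in other genes, mainly Cyp4a32 and Cyp4a31, which are not listed in either table.

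Vnn1, a pantetheinase that yields cysteamine (chr10:23894688-23905343), rose in both mutants. It held 2.08, 2.46, 2.15 and 2.1 CPM in control, 10.8, 8.81, 9.46 and 12.3 in the Hdac1 mutant and 17.8, 19, 18.4 and 15.8 in the libraries of the Hdac2 mutant. The groups were separate. The rise was 2.24 (SE 0.12, adjusted p = 2.1e-12), or 4.71-fold, and 3.02 (SE 0.09, adjusted p = 7.8e-17), or 8.11-fold, and the mutants differed by -0.79 (SE 0.08, adjusted p = 1.4e-08).

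Pdk4, a kinase that blocks pyruvate dehydrogenase and so favours fat as fuel (chr6:5483351-5496309), was the lowest of the 38 per kilobase. It held 0.57, 0.387, 0.529 and 0.546 CPM in control, 0.225, 0.324, 0.164 and 0.364 in the Hdac1 mutant and 0.479, 0.899, 1.16 and 1.13 in the libraries of the Hdac2 mutant, on 5 to 26 counts. The Hdac1-deficient libraries lay below all others, and Hdac2-deficient library 1 lay among the control libraries. Its log2 fold change was -0.90 (SE 0.32, adjusted p = 0.018) and 0.83 (SE 0.29, adjusted p = 0.016). The former did not pass without Hdac1-deficient library 3 (-0.71, adjusted p = 0.068), and the latter did not pass without Hdac2-deficient library 3 or 4 (0.70 each, adjusted p = 0.059 and 0.065). The difference between the mutants of -1.72 (SE 0.32, adjusted p = 8.2e-05) passed whichever library was left out, between -1.96 and -1.54.

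**Figure D5:**
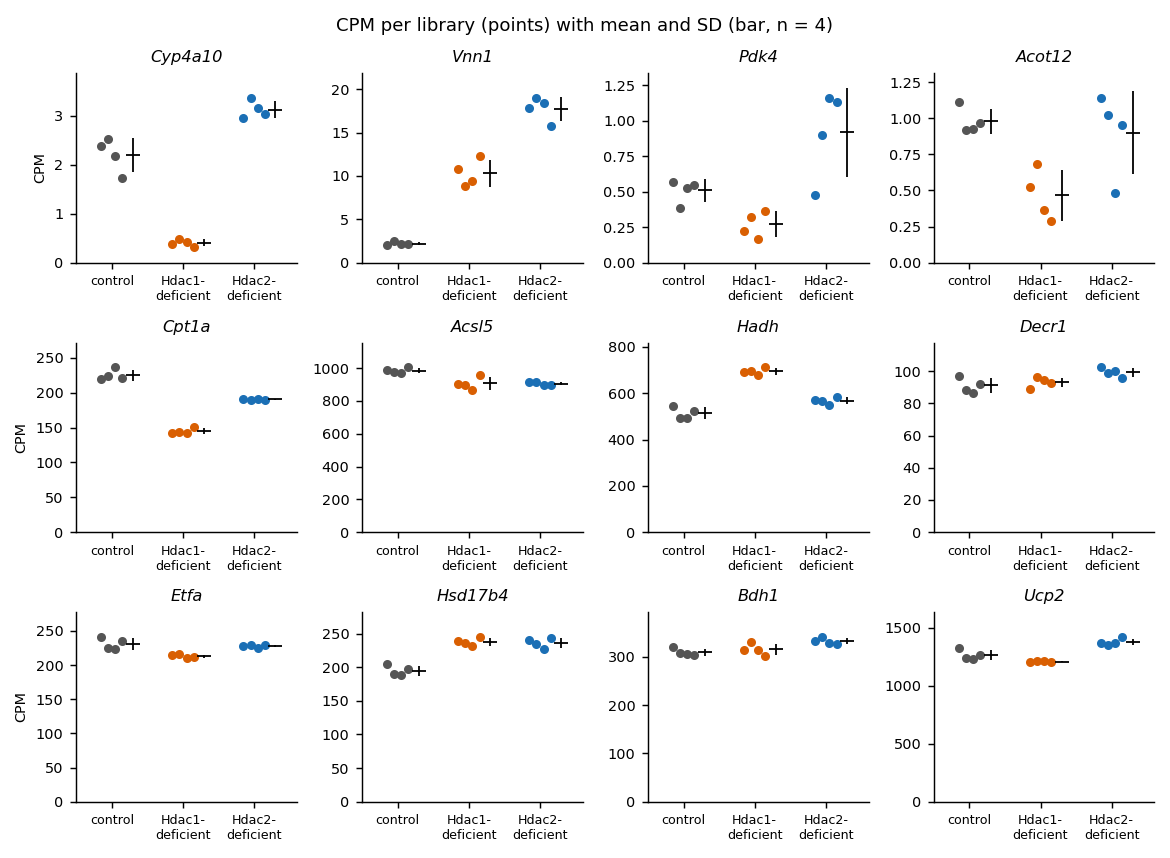
CPM (y axis, from 0) in each library of the 4 genes over 2-fold different in any comparison (top row) and of the gene with the highest mean CPM in each role; bars give mean and SD (n = 4). Cyp4a10 lies at 0.327 to 0.486 CPM in the Hdac1 mutant and at 2.95 to 3.36 CPM in the Hdac2 mutant, while Bdh1 and Decr1 overlap between groups.

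Creb3l3, Plin2, Angptl4 and Ucp2 complete this role. Creb3l3, a transcription factor of the endoplasmic reticulum that promotes lipid use, was at 182.7 ± 7.49 CPM in control, 294.2 ± 14.6 in the Hdac1 mutant and 258.0 ± 14.8 in the Hdac2 mutant (SD, n = 4) and rose by 0.70 and 0.51 (SE 0.04 each). Plin2, which coats lipid droplets, rose by 0.32 (SE 0.04) and 0.39 (SE 0.03), and Angptl4, a secreted inhibitor of lipoprotein lipase, by 0.32 and 0.21 (SE 0.07 each). Ucp2 held 1325, 1235, 1229 and 1268 CPM in control, 1205, 1209, 1213 and 1201 in the Hdac1 mutant and 1365, 1351, 1372 and 1420 in the libraries of the Hdac2 mutant. All 4 Hdac1-deficient libraries lay below and all 4 Hdac2-deficient libraries above the control range. The change of -0.06 (SE 0.03, adjusted p = 0.15) in the Hdac1 mutant did not pass, and that of 0.13 (SE 0.03, adjusted p = 0.00082) in the Hdac2 mutant did.

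Other genes of the pathway were compiled apart from the 38. Of 47 further oxidation and ketone genes tested, 23 were higher and 11 lower in the Hdac1 mutant and 24 higher and 9 lower in the Hdac2 mutant, with medians of 0.19 and 0.14. Of all tested genes, 32.7% were higher and 31.9% lower in the former and 31.4% higher and 30.9% lower in the latter. Called upward in each comparison were Slc27a2, a very long chain acyl-CoA synthetase (1.72 and 1.08), Acot4, a peroxisomal thioesterase (1.40 and 1.05), and Bbox1, the last enzyme of carnitine synthesis (1.28 and 1.03). Slc27a4, a fatty acid transport protein, was called at 1.14 in the Hdac1 mutant and stood at 0.73 in the Hdac2 mutant.

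Some of them differed between the mutants. Crot, the peroxisomal carnitine octanoyltransferase, was at 43.4, 111.9 and 46.2 CPM, with log2 fold changes of 1.38 and 0.10 and a difference of 1.28 (adjusted p = 1.1e-19). Acot3 was at 1.75 and -0.48, the latter not past the threshold (adjusted p = 0.068), with a difference of 2.23 (adjusted p = 4.4e-11). It was low, at 26 to 32 counts per library in control, 83 to 113 in the Hdac1 mutant and 11 to 22 in the Hdac2 mutant, and it shares windows with Acot1. Acox2, the oxidase of branched chains, was at 0.81 and 1.82 with a difference of -1.02 (adjusted p = 1.2e-09), and Eci3, a relative of Eci2, was at 0.93 and 1.80 with a difference of -0.87 (adjusted p = 4.5e-11).

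Among 25 regulators, 8 were higher and 4 lower in the Hdac1 mutant, where 64.6% of all tested genes changed (32.7% higher and 31.9% lower). In the Hdac2 mutant 13 were higher and 4 lower, where 62.3% of all tested genes changed (31.4% higher and 30.9% lower). Ppara itself was at 37.3, 47.8 and 47 CPM, which is 0.37 and 0.34 above control on the log2 scale (adjusted p = 6.4e-06 and 1e-05) and a difference of 0.02 (adjusted p = 0.72). Pparg, the related receptor, was at -1.01 and 0.10, with a difference of -1.12 (adjusted p = 5.3e-16). Ppargc1a, a coactivator of PPARA, was at 0.09 and 1.05, with a difference of -0.96 (adjusted p = 6.1e-13).

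Of 22 other PPAR-responsive genes, 13 could be tested in the Hdac1 mutant (4 higher, 6 lower) and 12 in the Hdac2 mutant (8 higher, 3 lower). The shares over all tested genes were 32.7% higher and 31.9% lower in the Hdac1 mutant and 31.4% and 30.9% in the Hdac2 mutant. The called ones were Cyp4f15, a fatty acid hydroxylase, at -2.53 and -1.84, Mgll, a monoglyceride lipase, just past 2-fold lower in the former (0.722, 0.357 and 0.456 CPM), Cd36, a fatty acid translocase, at 0.85 and 1.17, and Aqp7, a glycerol channel, at 0.00 and 1.05. Aqp7 also differed between the mutants, by -1.05 (adjusted p = 0.0012). Fabp1, which is counted among the enterocyte markers as well, was at 0.60 and 0.51.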

How the data were processed

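Groups and replicate numbers came from the sample labels. Per the labels, RNA was enriched for poly(A), directional libraries were sequenced as paired ends and reads were aligned to GRCm38 with STAR (version 2.4.0f1 in the submitters' processing notes). The counting program and its strand setting are not given in the sources used here, and 13 of the 38 genes have exons that overlap a gene on the opposite strand, so reads of the pair may not be separable (1151 bases of Acadvl with Dvl2, for example). The authors deposited whole counts per gene, 1 table per mutant with identical control counts, with no gene under 10 counts in total. The deposited score columns hold normalized values for each library, and other columns hold fold changes and p-values from the authors' own comparisons, none of which was used.

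Counts were tested with edgeR (version 4.0.16, R 4.3.3) (quasi-likelihood F test, robust dispersions), with TMM factors (0.9808 to 1.0201), filterByExpr and Benjamini-Hochberg adjustment over 14246, 14007 and 14510 genes. The SE is the log2 fold change divided by the square root of F. Common biological coefficients of variation were 0.0425, 0.0384 and 0.0394. The fits were first tested on simulated counts. The 38 genes, the other lists and the tests were chosen with earlier results of these data known. Values per library are given for genes called in any comparison and for the gene with the highest CPM of each role, and examples are those with the largest change. Exon lengths, positions and transcripts came from GENCODE M21 (GRCm38). Protein identity between paired genes was planned and not run, as no protein table was used here, and shared 100-base transcript windows were counted instead. No pair of libraries differed by so little that they had to be counted as 1. Alternatives were DESeq2 (version 1.42.0), other scalings and filters, a 1.5-fold threshold, a threshold of 0.01, all libraries in 1 fit, leaving out chromosomes 19, X and Y, a replicate block and leaving out each library. The values of 1 further gene of the pathway are not reported here.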

Additional observations from a re-analysis of the deposited data

Results flagged for a closer look

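Of 117 sets of 4 libraries checked (each of the 38 genes and Ppara in each of the 3 groups), 6 had 1 library far from the other 3 by Dixon's test, and chance alone gives about 1 in 20. They were Acadvl in Hdac1-deficient library 4 (189.3 CPM, the others 173.2 to 175.5), Ehhadh in Hdac1-deficient library 4 (162.9, the others 157.3 to 157.8), Hadha in control library 4 (348.3, the others 337.9 to 339.6), Eci2 in control library 4 (73.5, the others 71.2 to 71.3), Pex11a in control library 2 (32, the others 33.5 to 33.6) and Pex11a in Hdac2-deficient library 3 (37.4, the others 39.6 to 39.9). Genes that passed the test in opposite directions in the mutants and also differed in the direct comparison were Acadvl (difference -0.28), Hadha (-0.26), Eci2 (-0.58), Pdk4 (-1.72) and Cyp4a10 (-2.93), in log2 units as Hdac1-deficient minus Hdac2-deficient. Opposite changes against the same control libraries make a direct difference likely, so that condition adds little. The share of all genes with this pattern is not given here. For Pdk4 neither change against control passed with every library left out in turn.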

How the results depend on the processing

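Against a change of 1.5-fold, 2 genes were higher and 1 lower in Hdac1-deficient, 2 higher and 0 lower in Hdac2-deficient enteroids, and 0 higher and 3 lower between the mutants (edgeR). At an unadjusted p under 0.05 that test gave 2 higher and 3 lower, 2 and 0, and 0 and 4, and no other tool was run against this threshold. The shares of all tested genes that passed it are not given here. Without chromosomes 19, X and Y, 1 gene was lower in Hdac2-deficient enteroids, since Cpt1a and Acsl5 were then not in the fit. With each library left out, Hdac1-deficient enteroids had 17 to 18 higher, 9 to 11 lower and 2 to 4 called genes and a median of 0.04 to 0.08. Hdac2-deficient enteroids had 28 to 31 higher, 3 lower and 1 to 2 called genes, the second being Pdk4 (1.06) without Hdac2-deficient library 1. The direct comparison had 5 to 6 higher, 20 to 25 lower and 2 to 3 called genes, the third being Acot12. Under DESeq2, Pdk4 no longer passed in Hdac1-deficient enteroids (-0.91, adjusted p = 0.07), Hadhb in Hdac2-deficient enteroids (adjusted p = 0.1) and Decr1 between the mutants (adjusted p = 0.058), and Acot1 then passed (-0.18, adjusted p = 0.022); the cause was not tested. By gene and alternative, 647 of 682 values kept their side of the threshold in Hdac1-deficient and 632 of 682 in Hdac2-deficient enteroids. In the direct comparison 758 of 834 did. No value that passed in the main fit or in the alternative changed direction. Some values that passed in neither did, such as that of Slc25a20 in Hdac1-deficient enteroids (-0.07 to 0.02).

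Same-numbered libraries of different groups did not deviate together (correlations -0.045 to 0.091), so the replicate number was not taken as a pairing. The fit with a replicate block gave 18 higher, 11 lower and 3 called genes, 31, 3 and 1, and 6, 23 and 2 in the 3 comparisons, with medians of 0.06, 0.21 and -0.14. Precision is limited for Pdk4 (5 to 26 counts per library), Acot12 (8 to 33) and Cyp4a10 (9 to 86).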
